A study of Homo sapiens with 6 samples.

Results

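Fatty acid synthesis and desaturation was followed through 10 genes, taken by their symbols from the count tables of 6 RNA-seq libraries: Srebf1, Acly, Acaca, Fasn, Elovl5, Elovl6, Scd1, Scd2, Fads1 and Fads2. All 10 symbols were found among the 38986 in each table, and all 10 had enough counts to be tested. The study compared 3 libraries labelled STAT6, described as mCherry-positive 293T cells that overexpress wild-type STAT6, with 3 libraries labelled Mock, described as mCherry-positive 293T cells of WT genotype. Both groups were grown in DMEM with serum and antibiotics. The series asks how STAT6, a transcription factor activated by interleukins, acts on mitochondrial gene expression. The 293T line derives from human embryonic kidney and expresses the large T antigen of SV40.

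Fatty acids are built in the cytosol from acetyl-CoA. Acly cuts exported citrate to give acetyl-CoA, Acaca carboxylates it to malonyl-CoA in the committed step, and Fasn joins malonyl units into palmitate. Elongases of the endoplasmic reticulum lengthen the chain, Scd enzymes place the first double bond in saturated chains, and Fads enzymes add double bonds to polyunsaturated chains from the diet or medium. Srebf1 encodes a membrane-bound SREBP factor that is cut in the Golgi and then switches on most of these genes. The insulin-sensitive liver and fat are the tissues best known for the pathway, and proliferating cells use it for membrane lipids.

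Some facts of the whole series bear on every value below. The tables hold mouse gene symbols although the labels name a human line: 30 of 38986 symbols were identical to a human symbol, none of them a member. Stat6 itself was lower in STAT6-labelled libraries, at 35.1, 33.6 and 32.1 CPM (counts scaled to library size), than in Mock-labelled libraries, at 95.2, 95.5 and 92.8 CPM, which is -1.49 on the log2 scale (SE 0.04, adjusted p = 7.47e-26, edgeR). Directions therefore follow the labels alone: a gene called higher or lower is so in the group that carries the STAT6 label and had less Stat6 RNA. Totals ran from 19894773 to 23648304 counts in STAT6-labelled libraries and from 22368757 to 29802693 in Mock-labelled libraries. Separate cultures are not stated in the labels, which only number the libraries. The p-values therefore reflect library-to-library spread, which could be technical. Markers did not match the labelled tissue: of 6 kidney epithelium markers, Pax8, Epcam and Umod were at 0 in every library, Cdh1 gave most of the rest, and the list summed to 2.16 to 2.50 CPM in STAT6-labelled libraries and 0.517 to 0.738 CPM in Mock-labelled libraries. The 7 pigment cell markers, Tyr, Tyrp1, Dct, Pmel, Mlana, Mitf and Sox10, were all tested and summed to 16705 to 16841 CPM in STAT6-labelled libraries against 14404 to 14750 CPM in Mock-labelled libraries.

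All 10 genes fell in STAT6-labelled libraries. Scd1 and Scd2, the delta-9 desaturases, fell furthest, to 18.7% and 22.7% of their level in the Mock-labelled libraries, while Acly and Elovl5 kept 70.5% and 70.6% of theirs. Each gene was below its Mock range in every library labelled STAT6, with no overlap. The median log2 fold change of the 10 genes was -1.55, beside -0.0033 for all 12938 genes tested. CPM were scaled to the library total after TMM adjustment, and the test was edgeR's quasi-likelihood test with Benjamini-Hochberg adjustment over all genes tested and a threshold of 0.05. The background was wide: 72.6% of genes passed, 36.8% lower and 35.8% higher. With library totals alone, 5475 genes were lower and 4050 higher. Without a test, 37.7% had all STAT6-labelled libraries under all Mock-labelled ones. At a change of at least 2-fold the background was 4.96% lower and 10.6% higher, against 7 of the 10 members lower and none higher. In bulk RNA, fewer cells that express a gene and less RNA of it per cell cannot be told apart.

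**Figure D1:**
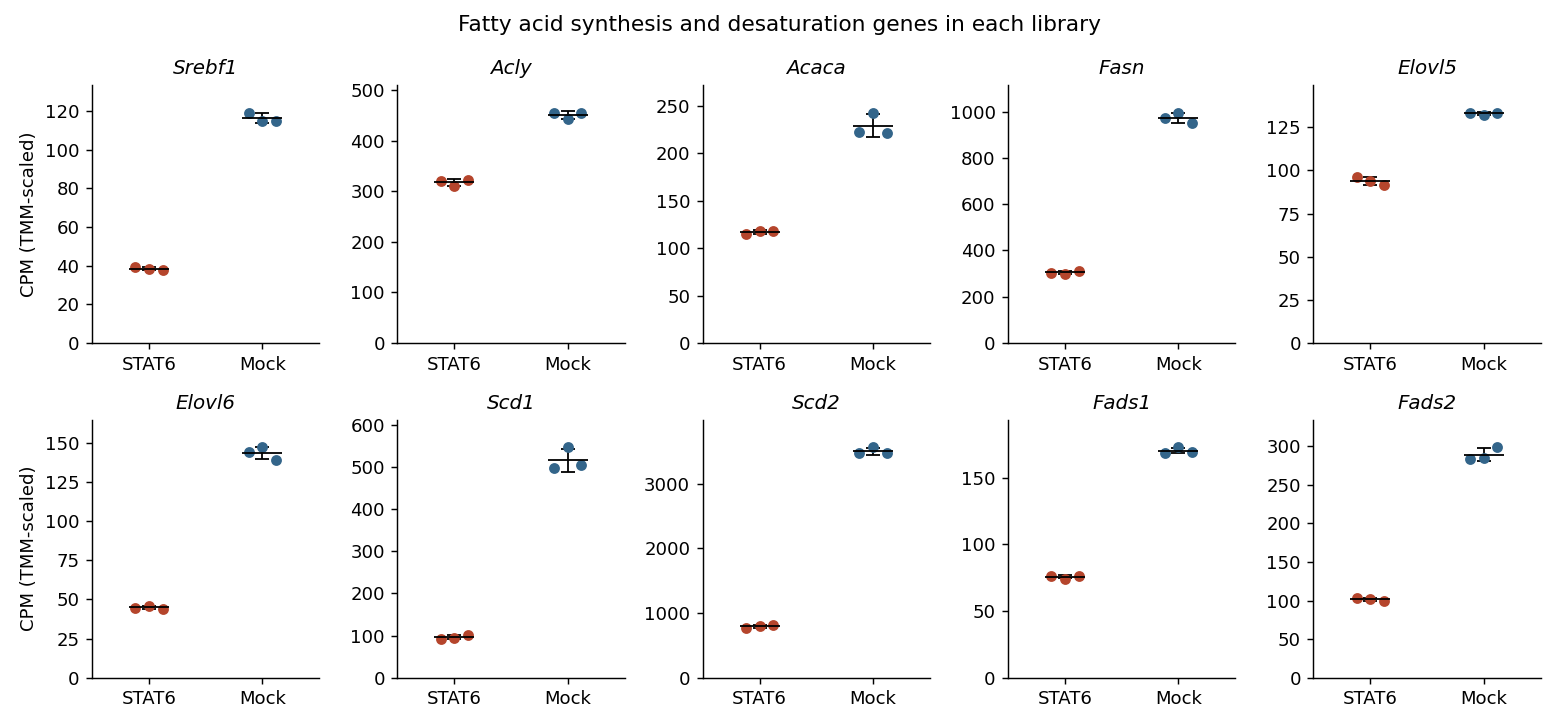
Level of each of the 10 genes, in CPM on an axis that starts at 0, in the 3 STAT6-labelled libraries (left) and the 3 Mock-labelled libraries (right). Points are libraries, and bars give the mean and SD; no gene overlaps between the groups, and the gap is widest, relative to the Mock level, for Scd1 and Scd2.

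Srebf1, the factor gene, stood at 39.1, 38.3 and 37.9 CPM in STAT6-labelled libraries, against 119, 115 and 115 CPM in Mock-labelled libraries. The groups did not overlap, and replicates lay within a narrow band (coefficient of variation 1.66% in STAT6-labelled libraries and 2.14% in Mock-labelled libraries). The log2 fold change was -1.60 (SE 0.04, adjusted p = 9.69e-28, edgeR), a fold of 3.02. The table gives 1 count per gene symbol, so the isoforms of Srebf1, which start at different promoters, were not separated.

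The genes around SREBP cleavage were less uniform. Of 6 genes, 4 fell, 1 rose and 1 did not pass, beside 36.8% of all genes tested called lower and 35.8% higher. Insig1, which holds the SREBP complex in the endoplasmic reticulum and is itself a known SREBP target, stood at 54.4, 50.8 and 51.8 CPM in STAT6-labelled libraries, against 217, 212 and 215 CPM in Mock-labelled libraries (log2 fold change -2.04, SE 0.04, adjusted p = 3.58e-32, edgeR). Insig2, a second retention protein that is less tied to SREBP, moved the other way, at 75.7, 70.3 and 71.3 CPM in STAT6-labelled libraries against 56.6, 52.2 and 52.2 CPM in Mock-labelled libraries (log2 fold change 0.44, SE 0.04, adjusted p = 8.7e-11, edgeR). Srebf2, the sister factor best known for sterol genes, was at 103 ± 5.21 CPM in STAT6-labelled libraries against 210 ± 6.88 CPM in Mock-labelled libraries (SD, n = 3 each; log2 fold change -1.02). Scap, the escort protein, and Mbtps1, the first protease of the cleavage, fell slightly, with log2 fold changes of -0.23 and -0.12. Mbtps2, the second protease, was at 43.7 ± 0.573 CPM in STAT6-labelled libraries and 45 ± 1.61 CPM in Mock-labelled libraries, a log2 difference of -0.04 that did not pass (adjusted p = 0.449, edgeR); scaled to library totals alone it was -0.11 and passed (adjusted p = 0.0314, edgeR).

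Of the early members, Acly, which makes acetyl-CoA from citrate, fell less than Acaca. Acly was at 320, 310.4 and 323 CPM in STAT6-labelled libraries, against 455, 442 and 454 CPM in Mock-labelled libraries. All STAT6-labelled libraries lay well below Mock-labelled libraries, and the change was -0.50 on the log2 scale (SE 0.03, adjusted p = 4.43e-17, edgeR). Acaca, the acetyl-CoA carboxylase, was at 115, 119 and 118.5 CPM in STAT6-labelled libraries, against 223, 243 and 222 CPM in Mock-labelled libraries. Its Mock replicate 2 was the highest of the 3, and the Mock coefficient of variation of 5.27% was the largest in either group for any member. The log2 fold change of Acaca was -0.97 (SE 0.04, adjusted p = 1.06e-22, edgeR), just short of a 2-fold change, and it passed 2-fold at -1.04 when libraries were scaled to their totals alone.

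Fasn, the synthase, carried one of the larger falls. It stood at 302, 300.3 and 313 CPM in STAT6-labelled libraries, against 973, 997 and 950.2 CPM in Mock-labelled libraries. Libraries of a group lay close together, with coefficients of variation of 2.34% in STAT6-labelled libraries and 2.39% in Mock-labelled libraries, and the groups were far apart. The log2 fold change was -1.67 (SE 0.03, adjusted p = 1e-32, edgeR), a fold of 3.19.

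The elongases went down by unequal amounts. Elovl6, which lengthens palmitate and other saturated and monounsaturated chains, was at 44.8, 46.0 and 43.8 CPM in STAT6-labelled libraries, against 144, 147 and 139 CPM in Mock-labelled libraries (log2 fold change -1.68, SE 0.04, adjusted p = 9.41e-29, edgeR). Elovl5, which lengthens polyunsaturated chains, was at 96.3, 94.1 and 91.5 CPM in STAT6-labelled libraries, against 134, 132 and 134 CPM in Mock-labelled libraries (log2 fold change -0.50, SE 0.04, adjusted p = 9.56e-15, edgeR). Both were without overlap between groups, but Elovl6 was left at 31.3% of its Mock level and Elovl5 at 70.6%. Within each library the ratio of Elovl6 to Elovl5 counts does not depend on how libraries are scaled. It was 0.465, 0.489 and 0.479 in STAT6-labelled libraries, against 1.08, 1.11 and 1.04 in Mock-labelled libraries.

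Scd1 and Scd2 encode stearoyl-CoA desaturases, which make oleate and palmitoleate from saturated chains; the mouse has several Scd genes in a cluster. Scd2 was at 769, 800.4 and 812 CPM in STAT6-labelled libraries, against 3474, 3565 and 3473 CPM in Mock-labelled libraries (log2 fold change -2.14, SE 0.03, adjusted p = 8.35e-37, edgeR). Scd1 was at 92.4, 95.0 and 101 CPM in STAT6-labelled libraries, against 496, 546 and 503 CPM in Mock-labelled libraries (log2 fold change -2.42, SE 0.04, adjusted p = 1.77e-27, edgeR). Both fell more than 4-fold, by factors of 5.36 for Scd1 and 4.41 for Scd2. The paralogs Scd3 and Scd4 were close to undetected, with 11 and 14 counts over STAT6-labelled libraries and 41 and 43 over Mock-labelled libraries; only Scd3 was tested (log2 fold change -1.59, adjusted p = 0.00464, edgeR). The Scd genes are close in sequence, so reads could be split between them, and their separate values are uncertain to that extent.

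Fads1 and Fads2, the front-end desaturases of polyunsaturated fatty acids, also fell. Fads2, which acts first on linoleate and alpha-linolenate, was at 104, 102 and 99.6 CPM in STAT6-labelled libraries, against 284, 286 and 299 CPM in Mock-labelled libraries (log2 fold change -1.51, SE 0.03, adjusted p = 1.86e-29, edgeR). Fads1, which acts later on the same route, was at 76.4, 74.2 and 76.2 CPM in STAT6-labelled libraries, against 169, 173 and 169 CPM in Mock-labelled libraries (log2 fold change -1.17, SE 0.04, adjusted p = 1.43e-25, edgeR). The gap between groups was many times the spread within them for both. Their paralog Fads3 was near the limit of detection, with 33 counts over STAT6-labelled libraries and 17 over Mock-labelled libraries, and was called higher (log2 fold change 1.22, SE 0.45, adjusted p = 0.0152, edgeR). Fads6, another relative, was at 10.3 ± 0.386 CPM in STAT6-labelled libraries and 11.3 ± 0.274 CPM in Mock-labelled libraries (SD, n = 3 each), a log2 difference of -0.15 that did not pass (adjusted p = 0.125, edgeR) but was -0.22 and passed with library totals alone (adjusted p = 0.0227, edgeR).

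In order of change, from the largest fall, the genes were Scd1, Scd2, Elovl6, Fasn, Srebf1, Fads2, Fads1, Acaca, Acly and Elovl5. Neighbours in this order were compared by the ratio of their counts within each library. Of 9 neighbouring pairs, 6 had ratios that did not overlap between the groups. The exceptions were Elovl6 with Fasn, Fasn with Srebf1, and Acly with Elovl5, whose log2 fold changes differed by 0.08 or less. The narrowest gap among the 6 was that of Srebf1 with Fads2, whose log2 ratios reached -1.39 in STAT6-labelled libraries and began at -1.38 in Mock-labelled libraries. The pairs were set by the order of the fold changes, so these gaps are a description and no test. No share over other pairs of genes was counted beside them. Among all genes tested, ranked from the lowest log2 fold change, Scd1 was at rank 202 and Scd2 at 235, Elovl6 and Fasn at 313 and 314, Srebf1 at 330 and Fads2 at 347, Fads1 at 499 and Acaca at 685, and Acly and Elovl5 at 1900 and 1910 of 12938.

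**Figure D2:**
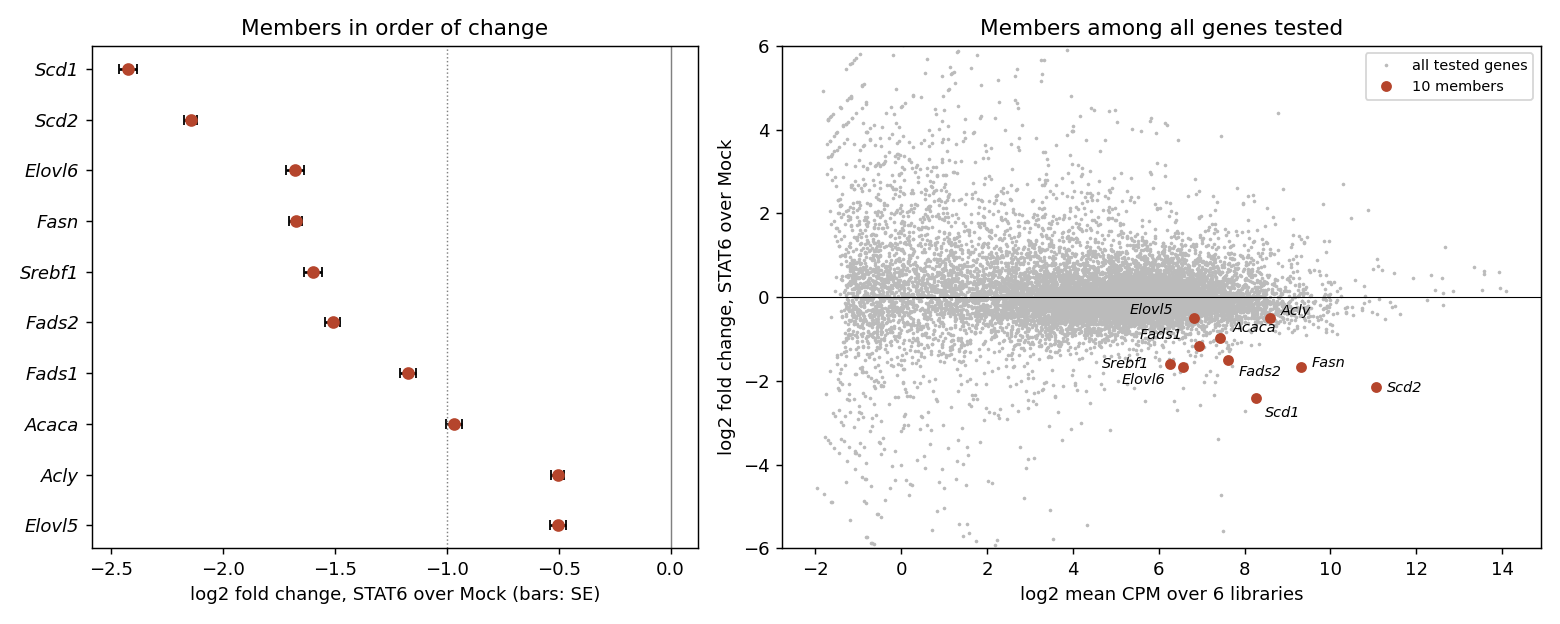
Left, log2 fold change of each gene, STAT6-labelled libraries over Mock-labelled libraries, with SE bars, from Scd1 at -2.42 to Elovl5 at -0.50; the dotted line marks a 2-fold fall. Right, the same values against log2 mean CPM over the 6 libraries, with all genes tested in grey; 81 genes beyond 6 in either direction lie outside the axis, and all 10 members lie below 0.

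Ratios within a library were compared for 6 pairs of genes with related roles. All 6 pairs were without overlap between groups, and each had p = 0.1 in an exact permutation test (2-sided, n = 3 per group; adjusted p = 0.1 over the 6), the smallest that 20 assignments of the libraries allow. The Fads2 to Fads1 ratio was 1.35 ± 0.0334 in STAT6-labelled libraries and 1.70 ± 0.0582 in Mock-labelled libraries (SD, n = 3 each). The Fasn to Acaca ratio was 2.60 ± 0.0606 in STAT6-labelled libraries and 4.25 ± 0.137 in Mock-labelled libraries, so the synthase lost more of its counts than the carboxylase did. In the other direction, the Acly to Acaca ratio was 2.71 ± 0.0858 in STAT6-labelled libraries and 1.97 ± 0.132 in Mock-labelled libraries. The Scd2 to Scd1 ratio was 8.26 ± 0.213 in STAT6-labelled libraries and 6.81 ± 0.250 in Mock-labelled libraries. The Srebf1 to Srebf2 ratio was 0.372 ± 0.0228 in STAT6-labelled libraries and 0.555 ± 0.0257 in Mock-labelled libraries. The ratios restate differences between log2 fold changes given above, and how often ratios of other gene pairs overlap was not counted. Gene lengths were not used, so these ratios compare the same pair between groups and say nothing of which gene of a pair was more abundant.

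**Figure D3:**
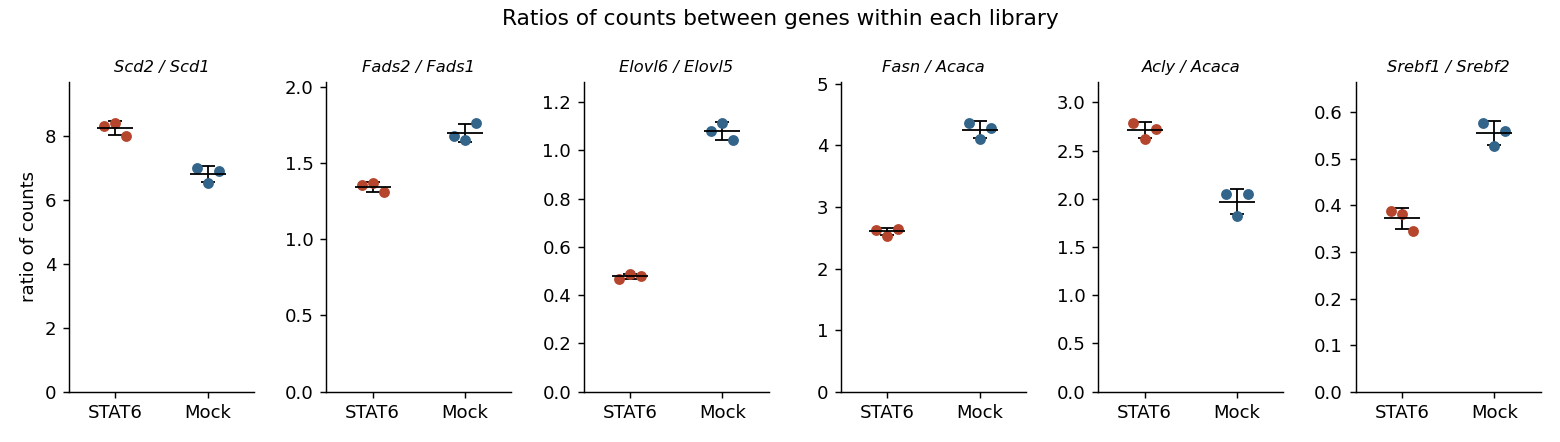
Ratio of counts of 6 pairs of genes within each library, on axes that start at 0, for the 3 STAT6-labelled libraries (left of each panel) and the 3 Mock-labelled libraries (right). Points are libraries and bars the mean and SD; Scd2 to Scd1 and Acly to Acaca were higher in STAT6-labelled libraries, and the other 4 ratios lower.

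Together the 10 genes took 0.193% ± 0.00167 of all counts in STAT6-labelled libraries and 0.669% ± 0.00784 in Mock-labelled libraries (SD, n = 3 each; exact permutation test, 2-sided, p = 0.1). Scd2 alone gave 39.3%, 40.4% and 40.2% of the members' counts in STAT6-labelled libraries and 53.7%, 53.6% and 53.8% in Mock-labelled libraries. Without Scd2 the other 9 genes took 0.116% ± 0.000876 of all counts in STAT6-labelled libraries and 0.310% ± 0.00404 in Mock-labelled libraries (exact permutation test, 2-sided, p = 0.1). These are shares of counts, not of molecules, since gene lengths were not used.

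Other genes of the route were read from lists that hold no member. Calls in this and the following lists stand beside 36.8% of all genes tested called lower and 35.8% called higher. Among 9 tested genes that supply or gate carbon and reducing power, 6 fell and 3 rose, with a median log2 fold change of -0.63. The citrate carrier Slc25a1 was at 21.8 ± 0.805 CPM in STAT6-labelled libraries and 41.6 ± 1.78 CPM in Mock-labelled libraries (log2 fold change -0.93). The cytosolic NADPH sources Idh1 (-1.30) and Pgd (-0.63) fell, while 2 other NADPH sources, G6pdx (0.50) and Me1 (0.09), rose, as did Mlycd, which breaks down malonyl-CoA (0.89). The rise of Me1 was lost with library totals alone (log2 fold change 0.01, adjusted p = 0.704, edgeR). The minor carboxylase Acacb and the acetate-activating enzyme Acss2 fell, with log2 fold changes of -0.94 and -1.15; these, G6pdx, Me1 and Mlycd were named after their values were seen.

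Of 9 tested genes among the other elongases and the enzymes of the elongation cycle, 7 fell and 2 rose. All genes tested had 36.8% lower and 35.8% higher, and the median log2 fold change of the list was -0.32. Elovl4, an elongase of very long chains (-1.42), the dehydratase gene Hacd1 (-1.09) and Elovl1 (-0.42) had the smallest adjusted p, all lower. The rises were Elovl7 (0.16) and Hacd3 (0.17), named after their values were seen, and that of Elovl7 was lost with library totals alone (adjusted p = 0.157, edgeR). Elovl2 had 0 counts in every library and Elovl3 had 1 count over STAT6-labelled libraries and 0 over Mock-labelled libraries.

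Desaturases take electrons from cytochrome b5 and its reductase. Of 7 tested genes, these partners and desaturase paralogs, 4 fell, 2 rose and 1 did not pass, with a median log2 fold change of -0.21. Cyb5r3, the reductase, rose, at 398 ± 6.95 CPM in STAT6-labelled libraries and 175 ± 4.66 CPM in Mock-labelled libraries (SD, n = 3 each; log2 fold change 1.19, SE 0.03, adjusted p = 2.33e-27, edgeR). The cytochrome genes Cyb5b (-0.53) and Cyb5a (-0.24) fell. Of 5 acyl-CoA synthetases, which activate fatty acids, 3 fell and 2 did not pass. Acsl3 was at 96.3 ± 2.39 CPM in STAT6-labelled libraries and 242 ± 3.67 CPM in Mock-labelled libraries (log2 fold change -1.33), Acsl6 had 12 counts over STAT6-labelled libraries and 137 over Mock-labelled libraries, and Acsl4 fell slightly (-0.18). The mitochondrial synthesis route, which makes the lipoate precursor, had 4 of 6 genes lower and 2 not past, with a median of -0.25. Lower were Ndufab1 (-0.34), Mcat (-0.28) and Hsd17b8 (-1.19), the last with only 74 counts over STAT6-labelled libraries and 209 over Mock-labelled libraries. Oxsm did not pass (adjusted p = 0.142, edgeR) but was called lower with library totals alone (adjusted p = 0.0211, edgeR). Beside the counts of these lists, 72.6% of all genes tested were called, 36.8% lower and 35.8% higher.

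Of 10 tested genes for other factors that act on lipid synthesis genes, 5 were lower, 2 higher and 3 not past, a share of calls near the 72.6% of all genes. Nr1h2, a liver X receptor gene, was at 48.3 ± 1.79 CPM in STAT6-labelled libraries and 44.9 ± 2.20 CPM in Mock-labelled libraries (SD, n = 3 each). It did not pass (log2 fold change 0.10, adjusted p = 0.052, edgeR) but was called higher with DESeq2 size factors (adjusted p = 0.0471, edgeR). Ppargc1b did not pass (adjusted p = 0.320, edgeR) but was called lower with library totals alone (adjusted p = 0.0431, edgeR). Nfyc (-1.01) fell, a subunit of the NF-Y complex that binds beside SREBP, and so did Usf2 (-0.66) and Rxra (-0.43), whereas the NF-Y subunits Nfya (0.31) and Nfyb (0.27), named after their values were seen, rose. The liver X receptor gene Nr1h3, whose product induces Srebf1 in liver, had 7 counts over STAT6-labelled libraries and 6 over Mock-labelled libraries, and Mlxipl, which encodes the glucose-sensing factor ChREBP, had 4 over STAT6-labelled libraries and 1 over Mock-labelled libraries. Genes of AMPK, the kinase that inhibits the Acaca enzyme, of its upstream kinase and of Fbxw7, which marks SREBP for breakdown, were also mixed. Of 8 genes, 5 fell, 2 rose and 1 did not pass, again beside 72.6% of all genes called. Stk11, which encodes the kinase LKB1 upstream of AMPK, rose, at 137 ± 2.33 CPM in STAT6-labelled libraries and 47.7 ± 1.58 CPM in Mock-labelled libraries (log2 fold change 1.52, SE 0.04, adjusted p = 9.06e-28, edgeR). The AMPK subunit genes Prkaa1 (-0.58) and Prkag2 (-0.93) fell, and the rise of Fbxw7 (0.21) was lost with library totals alone (adjusted p = 0.0512, edgeR). Phosphorylation of AMPK and of Acaca was not measured.

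**Figure D4:**
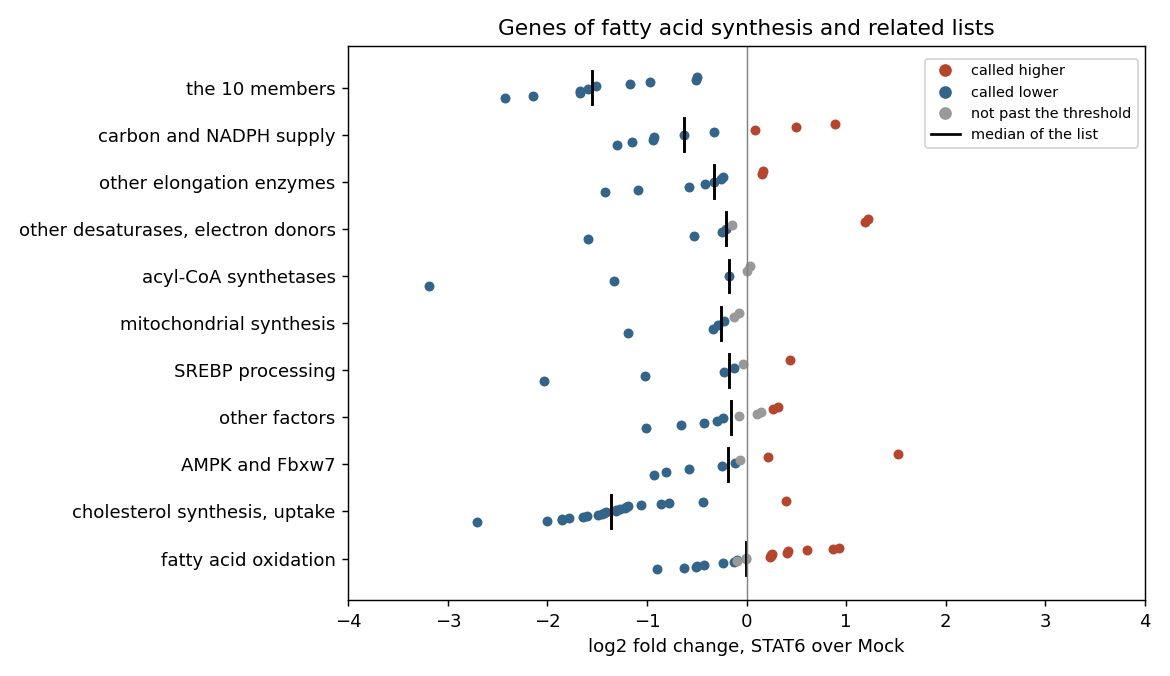
Log2 fold change, STAT6-labelled libraries over Mock-labelled libraries, of each tested gene (point) in the 10 members and in related lists, coloured by the call of the test, with the median of each list as a bar. Medians of the members (-1.55) and of cholesterol genes (-1.36) lie far below that of fatty acid oxidation genes (-0.01).

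The closest relatives by route, the cholesterol genes, which are also SREBP targets, had 21 lower and 1 higher of 22 tested, with 18 at least 2-fold lower and a median log2 fold change of -1.36. Cyp51 (-2.71), Fdps (-1.85) and Hmgcs1 (-1.64) had the smallest adjusted p. Among all genes tested, 36.8% were called lower, 35.8% higher and 4.96% at least 2-fold lower. Fatty acid oxidation, the opposite route, had 9 higher, 8 lower and 3 not past of 20 tested, none at least 2-fold, and a median of -0.01. With library totals alone it had 9 higher, 10 lower and 1 not past, since Hadha (adjusted p = 0.017, edgeR) and Etfdh (adjusted p = 0.00205, edgeR) were then called lower, and Etfdh was also called lower with upper-quartile scaling. Its entry enzyme Cpt1a rose (0.87) while Echs1 (-0.90) and Acadm (-0.62) fell. Whether these lists differ from the 10 genes was not tested.

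Likeness of pattern was measured over the 6 libraries as the root mean square distance between log2 CPM profiles centred on their own means, among 7673 named genes of at least 16 CPM. The genes nearest to the mean profile of the 10 members were the cholesterol gene Lss at a distance of 0.01, Rassf2 at 0.02, Npnt at 0.03, Dbf4 at 0.04 and Nup210 at 0.05 log2 units. The member closest to that mean was Fads2, at 0.06, and the farthest was Scd1, at 0.50. Nearest to Srebf1 were Nsdhl, another cholesterol gene, at 0.03, Xbp1 at 0.03 and Phgdh at 0.04, and nearest to Scd2 were Klf15 at 0.06, Bnc2 and Dclk2, both at 0.07. With 2 groups of 3, this distance is set largely by the size of the group difference.

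To see whether the fall extended to adjacent genes, the 5 tested genes on each side of each member were taken in the human gene order of RefSeq GRCh38.p14, in which 10629 tested genes could be placed by name; mouse order can differ. This was added after the data were seen, and Scd1 was placed at human SCD. Scd2 (log2 fold change -2.14) and Scd3 (-1.59), of the mouse Scd cluster, were not counted around Scd1. Fads1 (-1.17) and Fads2 (-1.51) were not counted around each other, which left 9 neighbours for each. The values of neighbours therefore leave out these genes, which fell. The median log2 fold change of the neighbours lay between -0.22 around Elovl5 and 0.43 around Acly, and it was -0.05 around Fasn, 0.02 around Scd1 and -0.13 around Srebf1. Around the 9 placed members 88 neighbours were counted, some of them around both Fads genes. Of the 88, 7 were at least 2-fold lower, beside 4.96% of all genes tested. Among these 7, 3 lay around Elovl5, and Rab3il1 (log2 fold change -1.23) was counted around both Fads genes.

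Markers of adipocytes and hepatocytes, other cells that make or hold much fat, were at or near 0. Of 5 adipocyte markers, Adipoq and Cfd were at 0, and the list summed to 0.0515 to 0.0980 CPM in STAT6-labelled libraries and 0 to 0.0327 CPM in Mock-labelled libraries. The 5 hepatocyte markers summed to 0.258 to 0.302 CPM in STAT6-labelled libraries and 0.172 to 0.196 CPM in Mock-labelled libraries, with Serpina1a at 0. Leukocyte and macrophage markers summed to 2.16 to 2.42 CPM in STAT6-labelled libraries and 0.517 to 0.785 CPM in Mock-labelled libraries, with Adgre1 at 0 and nearly all counts from Cd68. The 5 fibroblast markers summed to 76.5 to 82.8 CPM in STAT6-labelled libraries and 5.6 to 6.59 CPM in Mock-labelled libraries, and 1 of them, Col1a1, rose, at 78.7 ± 3.14 CPM in STAT6-labelled libraries and 4.85 ± 0.421 CPM in Mock-labelled libraries (SD, n = 3 each). Pdgfra, with 91 counts over STAT6-labelled libraries and 88 over Mock-labelled libraries, did not pass (log2 fold change 0.34, adjusted p = 0.223, edgeR), and Dcn, Lum and Thy1 had at most 1 count over a group. The part of Col1a1-expressing cells in the fall of the 10 genes was not tested. Of the 7 pigment markers, 4 rose, 2 fell and 1 did not pass, beside 72.6% of all genes called. Tyr fell most (-3.38) while Dct (0.54) and Sox10 (0.53) rose. The rise of Tyrp1 was lost with library totals alone (adjusted p = 0.539, edgeR) and the fall of Pmel with DESeq2 size factors (adjusted p = 0.0556, edgeR), and the part of these shifts was likewise not tested.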

How the data were processed

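Counts per gene symbol were deposited by the authors for each library as whole numbers with no normalization. FastQC, STAR, Salmon, edgeR and the human build GRCh37 were used in some role, per the submitters' processing notes. Per the labels' protocols, a stranded mRNA kit followed extraction with RNAiso Plus. How reads were counted, with which strand setting and filters, is not given in the sources used here. The mouse symbols and the human build differ, so no coordinates or sequences are printed.

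Counts were analysed with edgeR 4.0.16 in R 4.3.3: filterByExpr with the groups (12938 genes, 99.9% of counts), TMM factors of 0.968 to 1.03, glmQLFit with robust = TRUE and glmQLFTest, 2-sided, with group as the only term. The SE is the absolute log2 fold change over the root of the F statistic. Log2 CPM for likeness used a prior count of 2. The fit was also run on simulated counts in which few genes changed, unlike these data, so that run does not vouch for the calls. Within groups, 2 libraries differed by 1.49 to 2.63 times counting noise, so none was a copy. Alternatives are given below, with DESeq2 1.42.0 and limma 3.58.1.

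The members and lists were chosen with earlier results of these data known. Named from each lipid list were up to 3 genes with the smallest adjusted p, all SREBP processing genes, and the 5 or 3 most alike genes; all others (markers, paralogs such as Fads6, genes of low counts, and genes such as Oxsm, Fbxw7 and Slc27a4 whose call changed with the scaling) were named after their values were seen.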

Additional observations from a re-analysis of the deposited data

How the results depend on the processing

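All 10 genes stayed lower, and past an adjusted p of 0.05 over all genes, with DESeq2 size factors, library totals alone, upper-quartile scaling, limma-voom, DESeq2, a filter of 1 CPM in 3 libraries or none on low counts, each of the 6 libraries left out in turn and the replicate block, and also at a threshold of 0.01. A test for a change beyond 1.5-fold (edgeR glmTreat) called 8 of them and not Acly or Elovl5 (both adjusted p = 1), and it called 2779 genes in all, 972 lower and 1807 higher, since it asks for a larger change. At least 2-fold lower were 7 genes in each of these settings except library totals alone, where Acaca made it 8. Calls over all genes, the 1.5-fold test aside, ran from 8452 of 12938 (4257 lower) at a threshold of 0.01 to 9942 of 25386 (4988 lower) with no filter on low counts. The replicate number as a block gave 9422 calls over all genes against 9399. Same-numbered libraries deviated together with correlations of 0.05, 0.10 and 0.03, and differently numbered ones with correlations of -0.08 to 0.04. Deviations from the mean of 3 libraries cannot settle whether the numbers pair the libraries. The labels do not say that they do, and the main fit did not pair them. The log2 ratio of the members' share of all counts, -1.79, was -1.76 when the mtDNA genes were left out of the totals, -1.74 without the 20 genes with most counts, and -1.42 without Scd2, the member with most counts. The ratios of paired genes moved by less than 1 SD with summed counts or with any library left out. Depth did not limit the members, each with at least 743 counts in a library, but it limits Scd3, Scd4, Fads3, Nr1h3 and Mlxipl.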

Other observations

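Of 6 tested genes of fatty acid uptake and binding, 3 fell, 2 rose and 1 did not pass, beside 72.6% of all genes called, with a median log2 fold change of -0.33. Fabp5, a cytosolic fatty acid binding protein, was at 334 ± 4.64 CPM in STAT6-labelled libraries and 498 ± 16.3 CPM in Mock-labelled libraries (SD, n = 3 each; log2 fold change -0.58, adjusted p = 1.56e-18, edgeR), and Fabp7 (-1.16) and the transporter gene Slc27a6 (-1.06) fell as well. The rise of Slc27a4 (0.18) was lost with library totals alone (adjusted p = 0.129, edgeR).

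Genes listed as targets of liver X receptors, which also act on Srebf1, split in both directions, 2 lower, 2 higher and 1 not past of 5 tested. Among all genes tested, 36.8% were called lower and 35.8% higher. The cholesterol exporter gene Abca1 was at 5.09 ± 0.964 CPM in STAT6-labelled libraries and 22 ± 0.284 CPM in Mock-labelled libraries (SD, n = 3 each; log2 fold change -2.12), while Smpdl3a (1.10) and Pltp (0.93), a phospholipid transfer gene, rose.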
